A study of Arabidopsis thaliana with 13 samples.

Results

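The regions described here are places beside Arabidopsis thaliana genes where PIF4 had a called binding peak and neither CRY2 nor PIF5 had one. They were found by merging the peaks of the 3 deposited lists wherever they overlapped by at least 1 bp. A region was kept when it held a PIF4 peak, no CRY2 peak and no PIF5 peak, and when its midpoint lay outside every nuclear protein-coding gene body but at most 1000 bp from the nearest. This gave 2113 regions out of 12738 merged regions (16.6%), and 2113 of 4548 regions with PIF4 alone (46.5%). The others with PIF4 alone lay inside genes (1414) or more than 1 kb from one (1021). Each of the 2113 held exactly 1 PIF4 peak, so region and peak are the same thing here. The called peaks themselves chose these regions, so their PIF4 values and the absence of the other proteins are given as a description, without a test.

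PIF4 is a basic helix-loop-helix transcription factor that promotes elongation of stems in shade, warmth and weak blue light. It binds short DNA elements named the G-box and the PBE-box, often in promoters, and PIF5 is its close relative with largely overlapping targets. CRY2 is a blue-light receptor that can be found on chromatin through its partners. A flanking region can be a promoter or the stretch behind a gene, and the gene table used here, without strand, does not tell them apart.

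The study precipitated tagged proteins from whole seedlings of ecotype Columbia that were 5 days old and had spent 16 h in low blue light after continuous white light. The PIF4 line carried PIF4-3xFlag-6xHis (3 anti-FLAG and 2 IgG libraries), the PIF5 line PIF5-Flash(9xMyc-6xHis-3xFlag) (2 and 2), and the CRY2 line 3xFlag-6xHis-CRY2 behind the UBQ10 promoter (2 and 2). All groups thus carried a transgene. The promoter of the PIF transgenes, the number of independent lines and the state of the endogenous genes are not given in the sources used here. The CRY2 precipitation began with 18 g of material and an additional cross-linker, those of the PIFs with 2 g and without it. The authors pooled the replicates into 1 peak list per protein, with 9925 PIF4, 3767 PIF5 and 7320 CRY2 peaks. No value below therefore has a spread between replicates, the read depth is unknown, and intervals cover counting error only. In whole seedlings, binding in few cells and weak binding in many cannot be told apart. No called peak does not mean no binding: weaker PIF5 or CRY2 signal under the authors' threshold was not tested.

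PIF4 peaks at these regions were weak to middling. The authors' fold enrichment of each peak (FLAG signal relative to control) had a median of 2.23 (95% order-statistic interval 2.21 to 2.24), quartiles of 2.04 and 2.50 and a range of 1.71 to 4.21. The median over the whole PIF4 list was 2.46. Regions of PIF4 alone in other places had similar medians, 2.19 inside genes and 2.31 more than 1 kb from genes. At flanking regions that PIF4 shared with CRY2 the median was 2.30 (805 regions). It was 3.23 both where PIF4 was joined by PIF5 (622) and where it was joined by CRY2 and PIF5 (923). The regions of PIF4 alone were thus close in PIF4 strength to those shared with CRY2 and well below those shared with PIF5. The authors' -log10 p showed the same order, with a median of 22.97 for PIF4 alone, against 26.19, 63.62 and 65.39 for the groups with CRY2, with PIF5 and with both. Only 70 regions of PIF4 alone (3.31%) reached the median fold enrichment of the regions shared with PIF5.

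**Figure D1:**
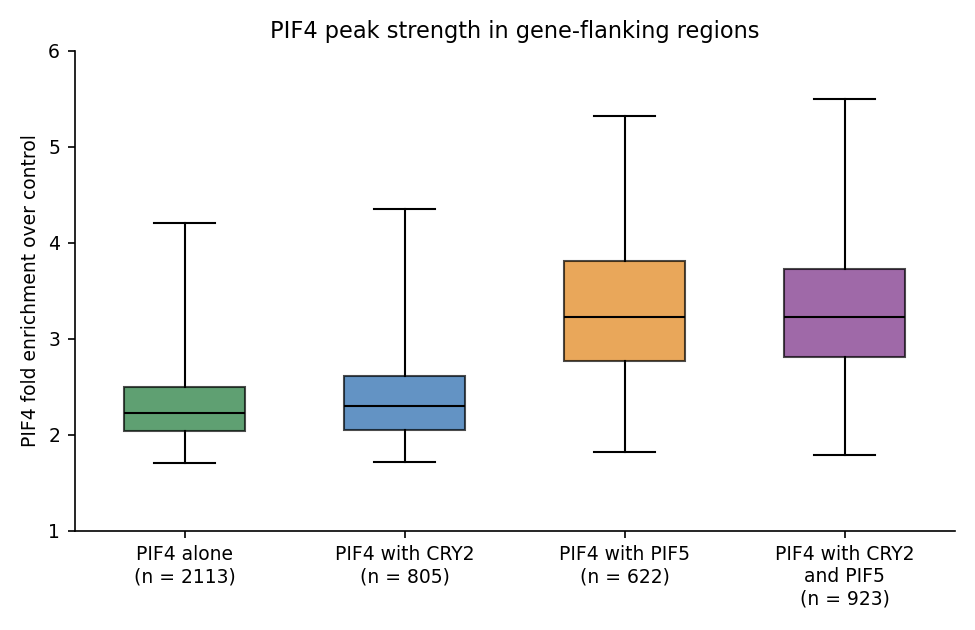
PIF4 fold enrichment over control in flanking regions, grouped by the proteins with a called peak; lines are medians, boxes quartiles and whiskers the full range. The median is 2.23 for PIF4 alone, 2.30 with CRY2 and 3.23 with PIF5, with or without CRY2.

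PIF4 stood alone mostly where it was weak. The 4463 flanking regions with a PIF4 peak were put in 10 bins of equal size by fold enrichment. Regions of PIF4 alone made up 71.3% of the weakest bin (fold enrichment 1.71 to 1.97) and 74.7% of the third (2.08 to 2.20). The share was 45.7% in the sixth bin and 2.01% in the strongest (3.69 to 5.50), where 9 of 447 regions had PIF4 alone. Regions of PIF4 with CRY2 but no PIF5 took 26.0% of the weakest bin, 25.8% of the sixth and 1.79% of the strongest. In the strongest bin 40.5% had PIF5 and 55.7% had PIF5 and CRY2, against 1.35% each in the weakest. The lists differ in length and in their lowest -log10 p, which was 13.36 for PIF4, 10.3 for PIF5 and 4.71 for CRY2. When each list was reduced to its strongest peaks at equal length, PIF4 stood alone in 24.3% of the flanking PIF4 regions, against 47.3% with the full lists.

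**Figure D2:**
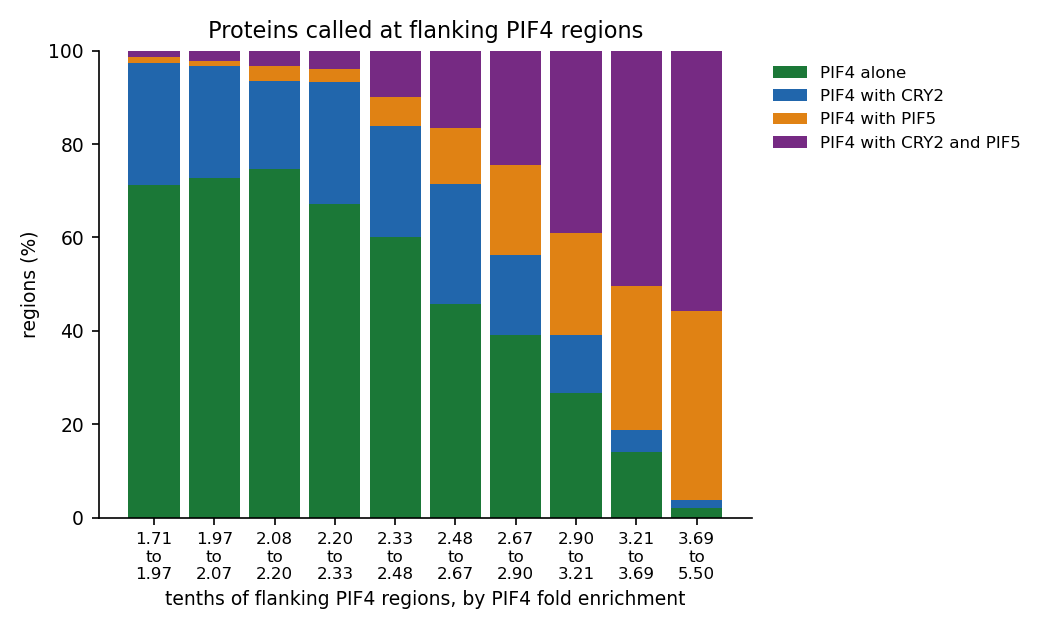
Share of flanking PIF4 regions (vertical axis, %) with each set of called proteins, in 10 bins of equal size by increasing PIF4 fold enrichment (horizontal axis). PIF4 alone makes up 71.3% of the weakest and 2.01% of the strongest bin.

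The regions were narrower than flanking regions of PIF4 with a partner, and the rule placed their midpoints within 1000 bp of a gene. Their median width was 728 bp (quartiles 546 and 1041), against 941 bp with CRY2, 1093.5 bp with PIF5 and 1399 bp with both. The PIF4 peak alone, without the partner's peak, was 851, 1037 and 1262 bp wide in those groups. Regions of PIF4 alone inside genes (median 672.5 bp) and more than 1 kb from genes (666 bp) were narrower than the flanking ones. The midpoint lay a median of 244 bp from the nearest gene, and 556 midpoints (26.3%, 95% interval 24.5 to 28.2) lay within 100 bp. That innermost strip made up 17.4% of all sequence within 1000 bp of a gene. Per 100 kb of such sequence, there were 13.1 regions in the innermost strip of 100 bp and 10.7 in the next. In the strips beyond 500 bp there were between 5.80 and 7.48, so density was highest at the gene edge. Flanking regions of PIF4 with a partner had 15.2 and 12.6 in the innermost strips and between 5.37 and 7.09 beyond 500 bp. Median fold enrichment was lowest in the innermost strip, at 2.17, and highest in the strip that ends at 800 bp, at 2.375. Across the 2113 regions Spearman's rho was 0.12 between distance and enrichment and 0.25 between width and enrichment, as a description of regions from 1 list.

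**Figure D3:**
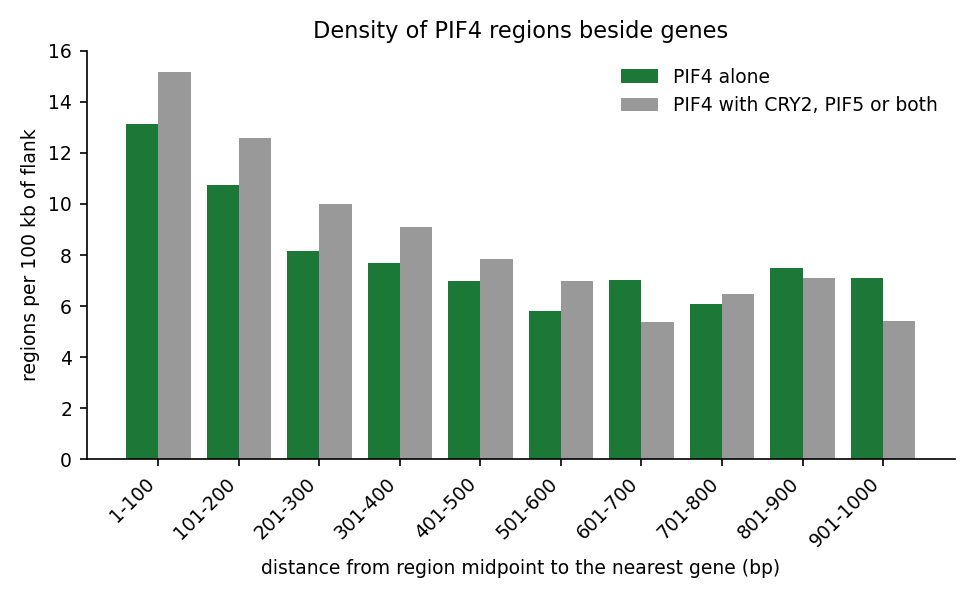
Regions per 100 kb of gene-flanking sequence (vertical axis) in strips of 100 bp by distance from the midpoint to the nearest protein-coding gene (horizontal axis). Regions of PIF4 alone fall from 13.1 in the innermost strip to 7.10 in the outermost; flanking regions of PIF4 with a partner go from 15.2 to 5.44.

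Many regions reached into the gene they flanked. A stretch of the region overlapped a protein-coding gene body in 1447 of 2113 (68.5%), and the PIF4 summit itself lay inside a gene in 233. For flanking regions of PIF4 with a partner, which were wider, 2041 of 2350 (86.9%) reached into a gene body and 293 had the summit inside one. Genes lay within 1000 bp on both sides of 769 regions (36.4%, 34.4 to 38.5), so in those the nearest gene is a choice between neighbours. The intergenic stretch that held a region of PIF4 alone had a median length of 1891 bp, against 1377 bp for PIF4 with CRY2, 1948.5 bp for PIF4 with PIF5 and 1699 bp for all 3. Midpoints fell in another annotated gene type in 90 cases (4.26%), mostly long non-coding RNA genes (56), with 9 in tRNA genes. For flanking regions of PIF4 with a partner it was 134 of 2350 (5.70%). All 5 chromosomes held such regions, from 68.8 per 1000 genes on chromosome 2 to 85.9 on chromosome 5.

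Most of the regions had no CRY2 or PIF5 peak within 1000 bp, which the rule favours since it took regions without these peaks. Within 5000 bp, 51.3% had a CRY2 peak and 35.7% a PIF5 peak. The gap from the region to the nearest PIF5 peak had a median of 8269 bp, and to the nearest CRY2 peak 4815 bp. A PIF5 peak came within 1000 bp of 181 regions (8.57%) and a CRY2 peak within 1000 bp of 315 (14.9%), which left 1718 (81.3%) with neither. Median PIF4 enrichment was 2.21 where a PIF5 peak was within 1000 bp and 2.23 where none was. It was 2.25 where a CRY2 peak was within 1000 bp and 2.22 where none was. Regions of PIF4 alone inside genes had nearly the same gaps, with PIF5 within 1000 bp of 9.62% (95% interval 8.19 to 11.3) and CRY2 within 1000 bp of 13.6%. Those more than 1 kb from genes had PIF5 that near in 16.0% (13.8 to 18.3), above the interval of 7.45 to 9.84 for the flanking ones. Another PIF4 peak lay within 1000 bp of 26.4% of the flanking regions and of 48.4% of those more than 1 kb from genes.

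**Figure D4:**
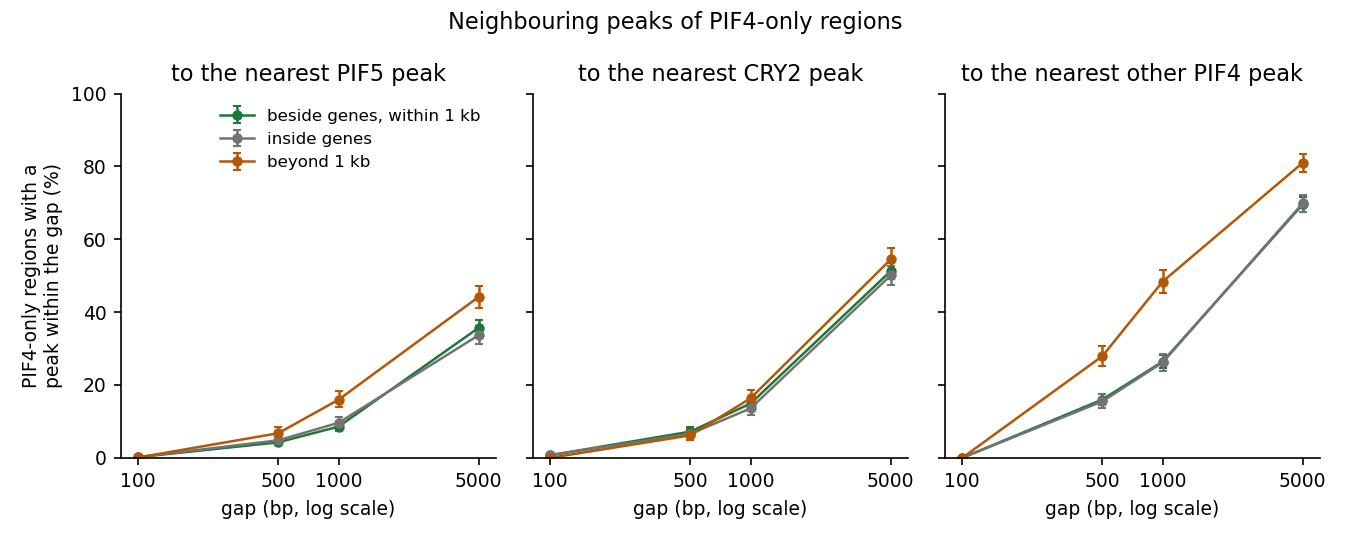
Share of PIF4-only regions (vertical axis, % with 95% Wilson intervals) that have a PIF5, a CRY2 or another PIF4 peak within a gap of 100, 500, 1000 or 5000 bp (log axis). Flanking regions and those inside genes follow each other, with 8.57% and 9.62% near PIF5 at 1000 bp, and those beyond 1 kb lie higher at 16.0%.

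The limits of the rule show how near the neighbouring cases were. The outermost region lay 1000 bp from AT5G33280, a chloride channel gene, at a fold enrichment of 2.39, and the first one left out lay 1002 bp from BAP2 at 2.69. The smallest gap to a CRY2 peak was 9 bp, at RAD51B, a gene of homologous recombination (PIF4 fold enrichment 2.01). The smallest gap to a PIF5 peak was 31 bp, at ADC2, an arginine decarboxylase of polyamine synthesis (2.50). The lowest enrichments were 1.71 at AT5G03905, 1.77 at SDS, a meiotic cyclin-like gene, and 1.77 at AT3G62270, a boron transporter gene also named BOR2.

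The strongest regions lay beside genes of quite different kinds. The 25 with the highest enrichment spanned 3.51 to 4.21, and none was joined by a PIF5 peak nearer than 579 bp or a CRY2 peak nearer than 213 bp. First came MYB47, a MYB transcription factor gene, with a peak of 4.21 (-log10 p 99.27) at chr1:6452902-6453853 (build TAIR10, counted from 1), its midpoint 114 bp from the gene. AT1G75460 followed at 4.05 (chr1:28326164-28327999), 617 bp away, with a CRY2 peak 213 bp off. APG8H, also named ATG8I, which encodes a ubiquitin-like protein of autophagosomes, had 3.95 at chr3:5272678-5273298. AT2G35070 had 3.95 as well, and CIPK12, a kinase that pairs with calcineurin B-like calcium sensors, had 3.93 at chr4:10287867-10288864.

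Genes of auxin response, auxin synthesis and the cell wall were among the 25 as well. SAUR50, in the table as AT4G34760, had a peak of 3.88 at chr4:16582474-16583778 with its summit inside the gene. SAUR genes encode small proteins that promote cell expansion, and SAUR15, a further member, had 3.63 at chr4:18126792-18128726, 930 bp from the gene and 579 bp from a PIF5 peak. TAR2, an aminotransferase of auxin synthesis, had 3.69 at chr4:12726913-12727439, and its nearest PIF5 peak was 38428 bp off. Genes of the cell wall were MAN2, an endo-beta-mannanase (3.65), GALS3, a galactan synthase that makes pectin side chains (3.62), and PRXCA, a secreted peroxidase (3.51). PDCB4, a callose-binding protein of plasmodesmata, also had 3.51.

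Metabolic and signalling genes were a further group. BCAT-1 and BCAT-2, both branched-chain amino acid transaminase genes, lay 379 and 416 bp on either side of a region of 3.59 at chr1:3286938-3288405. CS26, a plastid enzyme of sulfur metabolism, had 3.59. FAP3, a plastid fatty-acid-binding protein, had 3.56, and CCS, the copper chaperone of superoxide dismutase, 3.55. The receptor-like kinases LYK3 (3.57) and AT3G59730 (3.52) and the bZIP factor gene BZIP34 (3.68) were also among them. AT1G48510 (3.69) shared its region with JAZ4, a jasmonate repressor gene 83 bp to the other side, and AT5G17270 (3.68) shared its own with NAC086, a sieve-element factor gene 960 bp away. The remaining 4 were AT4G30180 (3.69), AT4G23510 (3.69), AT1G03990 (3.61) and AT2G23755 (3.56).

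The 2113 regions had 2056 nearest genes, which is 7.49% of the 27444 nuclear protein-coding genes. Flanking regions of PIF4 with a partner had 2272 nearest genes (8.28%), and 95 genes were next to regions of both kinds, which is 4.62% of the genes beside PIF4 alone and 4.18% of the others. Of the 2056 genes, 500 (24.3%) had a CRY2 peak in the gene or within 1000 bp and 299 (14.5%) a PIF5 peak, against 32.3% and 17.8% of all genes. A total of 1438 (69.9%) had neither, against 62.5% of all genes, a difference that the rule favours since it took regions without these peaks. Genes with a symbol of their own were beside such a region in 9.03% of cases, and genes known only by a locus tag in 6.56%. Counting every gene within 1000 bp of a midpoint gave 2847 genes (10.4%). Genes were put in the lists below by symbol or, where the table gives only a locus tag, by synonym, as for most SAUR genes (16 of 80 by symbol).

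Of the 24 lists, auxin response genes had the highest share beside PIF4 alone, with an interval that overlaps those of several others. It was the highest in 8 of 13 alternative settings, and in the other 5 jasmonate, ERF and DREB or bHLH genes were higher. Of 120 SAUR, IAA and GH3 genes, 29 (24.2%, 95% interval 17.4 to 32.6) were next to such a region, against 7.49% of all genes. Flanking regions of PIF4 with a partner were next to 21 of the 120 (17.5%, 11.7 to 25.3), and the intervals overlap. The 29 genes had a median PIF4 fold enrichment of 2.56 and a range of 2.11 to 3.88. Of the 29, 25 had neither a CRY2 nor a PIF5 peak in the gene or within 1000 bp of it. The same held for 69.9% of all genes beside PIF4 alone and 62.5% of all genes. Genes of this list are shorter (median 962.5 bp, against 2078 bp for all genes), so less sequence was searched for those peaks. Neighbouring genes share arrays: the 29 genes lay in 20 clusters when genes up to 10000 bp apart were joined. With lists of equal size the count was 14 of 120, against 1.54% of all genes. Among regions wholly outside gene bodies it was 5 of 120, against 2.40%.

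Within that list the SAUR genes carried most of the count, a division made after the values were seen. SAUR genes were next to PIF4 alone in 22 of 80 cases (27.5%, 18.9 to 38.1), in 13 clusters, and next to PIF4 with a partner in 11 (13.8%, 7.85 to 23.0). None of the 22 had a CRY2 peak in the gene or within 1000 bp of it, and 1 had a PIF5 peak. Such a CRY2 peak was found for 24.3% of all genes beside PIF4 alone, and such a PIF5 peak for 14.5%. Over all genes the shares were 32.3% and 17.8%. The rule took regions without these peaks. SAUR genes are also short (median 815 bp, against 2078 bp for all genes), so less sequence was searched. Measured from the region in place of the gene, 17 SAUR genes were next to a region with neither peak within 1000 bp. After SAUR50 and SAUR15, came SAUR13 (3.35, 330 bp from the gene) and SAUR21 (3.33, 170 bp). Among 5 SAUR genes close together on chromosome 1, picked after their values were seen, SAUR61 had 2.44, SAUR64 2.25, SAUR65 2.86, SAUR66 3.21 and SAUR68 2.50. A region wholly outside gene bodies was found for 3 SAUR genes. Whether reads were shared between similar genes of an array was not tested. Of the IAA genes, which encode repressors of auxin response, 7 of 30 (23.3%, 11.8 to 40.9) were beside PIF4 alone, led by IAA7 at 3.27 and IAA8 at 2.81. None of the 10 GH3 genes, which conjugate auxin to amino acids, was, which with a count of 0 allows up to 30.0%, while 4 were beside PIF4 with a partner.

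Auxin synthesis and transport genes and cell wall genes were nearer to the share of all genes. Of 33 synthesis and transport genes 4 (12.1%, 4.82 to 27.3) were next to PIF4 alone: TAR2 at 3.69, the influx carrier AUX1 at 2.06, TAR1 at 2.04 and the flavin monooxygenase YUC4 at 1.95. Of 79 xyloglucan enzyme, expansin and cellulose synthase genes 9 (11.4%, 6.11 to 20.3) were, the same number as next to PIF4 with a partner. XTH4, a xyloglucan enzyme, led them with a peak of 3.50, 964 bp from the gene. The expansin genes ATEXPA3 (2.90) and EXPA15 (2.38) and XTH31 (2.35) came after it.

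Brassinosteroid and clock genes were beside PIF4 alone at shares whose limits include that of all genes, and were more often beside PIF4 with a partner. None of 23 brassinosteroid genes was next to PIF4 alone (a count of 0 allows up to 13.0%, against 7.49% of all genes), while 8 (34.8%, 18.8 to 55.1) were next to a flanking region of PIF4 with a partner, against 8.28% of all genes. The 8 are BEH2, BEH3, BEH4 and BZR1, of the family of response factors, the bHLH gene BEE2, the kinase gene BIN2, the synthesis gene DWF4 and the inactivation gene BAS1. CRY2 was at the region of each of the 8. It was also at most of the 2350 flanking regions of PIF4 with a partner: 805 had CRY2 without PIF5, 923 had both, and 622 had PIF5 without CRY2. Of 29 clock genes, 3 (10.3%, 3.58 to 26.4) were next to PIF4 alone and 12 (41.4%, 25.5 to 59.3) next to PIF4 with a partner, beside the same shares of all genes. The 3 are FKF1, a blue-light-sensing F-box gene (2.78), the MYB-like factor gene RVE1 (2.20) and PRR3 (1.92).

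Other hormone lists had shares between 11% and 17.9%, against 7.49% of all genes, and every interval but that of jasmonate includes 7.49%. Of the 28 jasmonate genes, 26 were matched by symbol, and their interval includes the 9.03% of genes with a symbol of their own. Gibberellin genes counted 4 of 31 (12.9%, 5.13 to 28.9), led by GASA14 at 3.38, the DELLA gene RGL3 at 2.66 and GASA4 at 2.41, with the inactivating oxidase gene GA2OX4 at 2.07. Ethylene genes counted 4 of 26 (15.4%, 6.15 to 33.5), at low enrichment: the F-box gene EBF1 had 2.21, the kinase gene CTR1 2.00, the synthesis gene ACS2 1.97 and the receptor gene ETR2 1.89. A CRY2 peak and a PIF5 peak lay in or within 1000 bp of EBF1, CTR1 and ACS2. Abscisic acid genes counted 5 of 36 (13.9%, 6.08 to 28.7), with NCED4 at 3.18, the receptor gene PYL2 at 2.46, the bZIP gene ABF1 at 2.16 and NCED2 at 2.05. Jasmonate genes counted 5 of 28 (17.9%, 7.88 to 35.6), 9 when partners had to overlap by at least 50% of both peaks and 1 with lists of equal size, among them the repressor genes JAZ5 (2.71), JAZ9 (2.23) and JAZ12 (2.12) and the lipoxygenase gene LOX2 (2.04). Cytokinin genes counted 8 of 73 (5.66 to 20.2%), with the type-A response regulator genes ARR4 at 3.12 and ARR8 at 2.47, CRF10 at 2.63 and the oxidase gene CKX4 at 2.41. Beside PIF4 with a partner the shares were 12.9% for gibberellin, 26.9% for ethylene and 5.56% for abscisic acid genes. They were 14.3% for jasmonate and 12.3% for cytokinin genes, against 8.28% of all genes.

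Light signalling genes were beside PIF4 alone in 9 of 69 cases (13.0%, 7.02 to 23.0), an interval that includes the 7.49% of all genes. They were beside PIF4 with a partner in 18 (26.1%, 17.2 to 37.5), against 8.28% of all genes. SPA4, a partner of the COP1 ubiquitin ligase, had the highest peak at 3.49 (chr1:19782221-19783428). Next to the PIF4 gene itself a region of 3.21 lay at chr2:17889176-17889719, 360 bp from the gene. The line carries a PIF4 transgene, whose part in this peak was not tested. The gene was also next to a region of PIF4 with CRY2 (2.73). The B-box genes BBX31 (2.79) and BBX29 (2.73) followed, and BBX29 was also next to a region of all 3 proteins with a PIF4 value of 5.40.

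Transcription factor families differed in their counts, but the interval of each family overlapped that of every other. The intervals were 9.57 to 30.3% for homeobox, 9.51 to 32.0% for ERF and DREB and 5.74 to 20.4% for WRKY genes. They were 4.40 to 14.1% for MYB and 4.11 to 15.0% for NAC genes. The bHLH genes outside the light list counted 8 of 36 (22.2%, 11.7 to 38.1). All 8 were free of CRY2 and PIF5 peaks in the gene and within 1000 bp of it. So were 69.9% of all genes beside PIF4 alone, since the rule favours this, and 62.5% of all genes. Measured from the region, 6 of the 8 bHLH genes remained next to one with neither peak within 500 bp. PIF5 was 208 bp from the region of IBH1, and CRY2 366 bp and PIF5 443 bp from that of PRE6. They include bHLH39, a factor of iron uptake (2.76), RHD6, which starts root hairs (2.70), PRE5, a growth-promoting helix-loop-helix gene (2.67), and bHLH071 (2.67). Homeobox genes counted 9 of 51 (17.6%), led by HB5 (2.75), HB-7 (2.55), HAT9 (2.52) and AtHB23 (2.37). ERF and DREB genes counted 8 of 44 (18.2%), with ERF72 and ERF53 both at 2.52, ERF15 at 2.34 and RAP2.12, a factor of the response to low oxygen, at 2.25. The MYB and NAC families were near the 7.49% of all genes at the limit of 1000 bp. With a limit of 2000 bp, MYB genes counted 26 of 125 (20.8%) and NAC genes 13 of 100, against 9.34% of all genes. MYB genes counted 10 of 125 (8.0%), with ATMYB91, the leaf development gene also named AS1, at 3.49, MYB105 at 3.28 and MYB49 at 2.81 after MYB47. NAC genes counted 8 of 100 (8.0%), with NAC003 at 3.23, the senescence factor NAC6 at 2.89, NAC086 at 2.63 and NAC047 at 2.61. WRKY genes counted 8 of 72 (11.1%), with WRKY18 at 2.81, ATWRKY44 at 2.79, WRKY54 at 2.35 and WRKY41 at 2.15. None of the 8 ZAT and AZF zinc finger genes was counted, which allows up to 37.5%.

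The remaining lists had shares between 5.26% and 12.1%, against 7.49% of all genes. Calcium sensing genes counted 11 of 91 (12.1%), with the kinase genes CPK6 (2.75), CIPK9 (2.73) and CPK1 (2.60) after CIPK12. Signal peptide genes counted 8 of 82 (9.76%), led by CLE43 (3.02), IDL3 (2.48), IDL4 (2.46) and CLE41, a peptide of vascular development (2.22). Ribosomal protein genes counted 4 of 44 (9.09%), all below 2.2: RPL12 had 2.13, RPS9 2.05, RPL16A 1.97 and RPL10C 1.87. Actin, tubulin and ubiquitin genes counted 3 of 38 (7.89%), namely ACT11 (2.39), ACT8 (2.29) and TUB2 (2.00). Heat shock genes counted 3 of 43 (6.98%), namely HSFA6B (2.57), HSP81-2 (1.94) and HSFA7A (1.82). Photosystem genes counted 2 of 38 (5.26%), PSBQ (2.93) and PSBO1 (2.25), both of the oxygen-evolving complex.

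**Figure D5:**
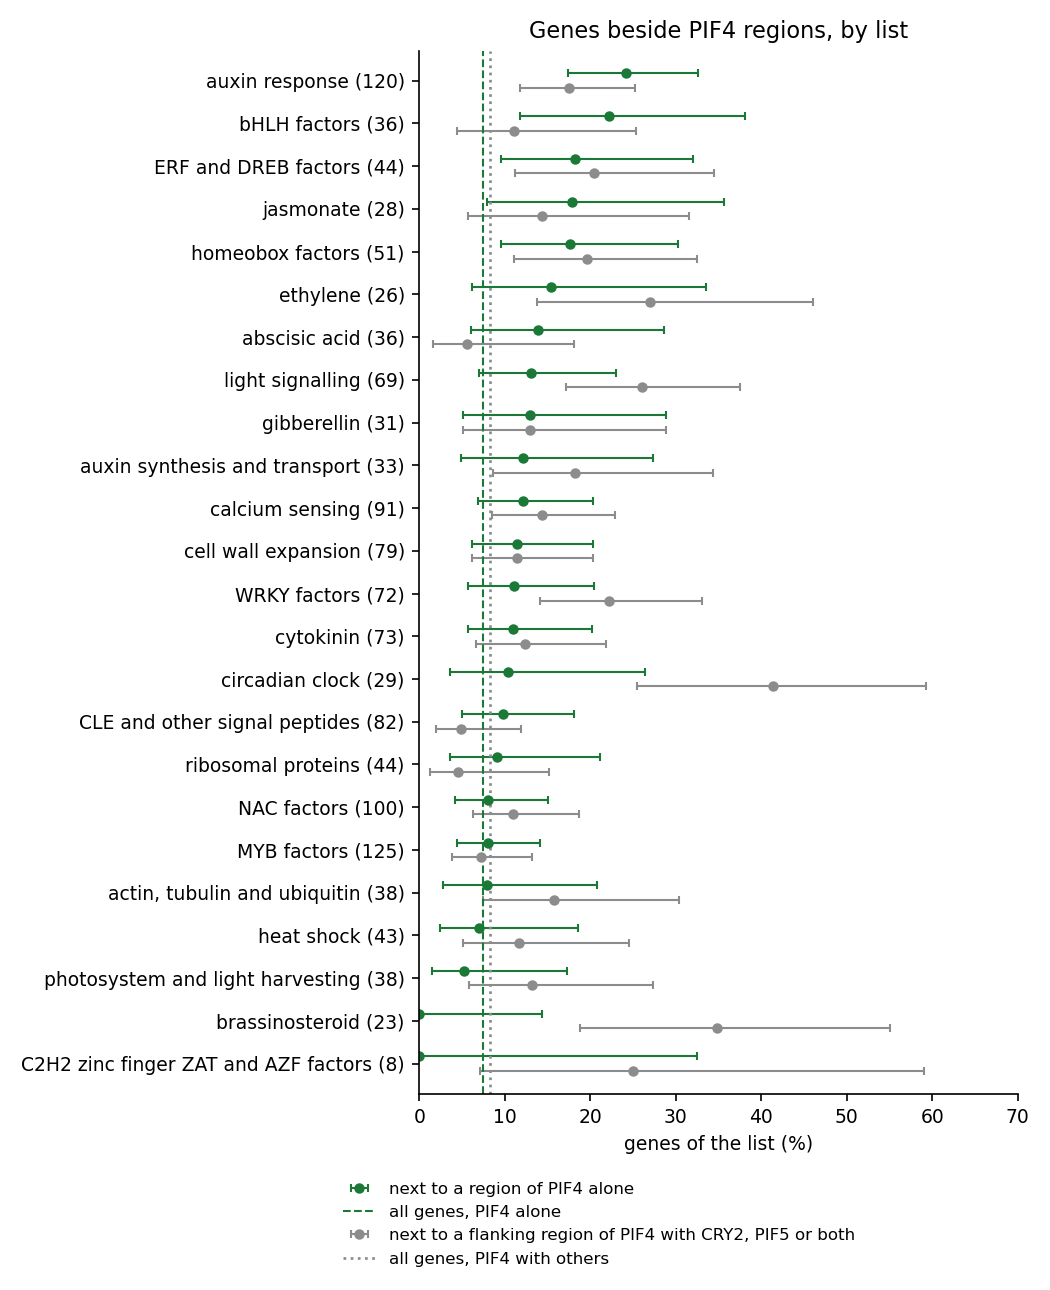
Share of the genes of each list (horizontal axis, %, with 95% Wilson intervals; list size in parentheses) that are nearest to a flanking region of PIF4 alone or of PIF4 with a partner. Vertical lines mark the shares of all genes, 7.49% and 8.28%; for PIF4 alone auxin response stands at 24.2%, the highest here but not in 5 of 13 alternative settings, and brassinosteroid genes stand at 0.

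A small set of genes had 2 such regions. There were 57 of them (2.77% of the 2056), and in 48 the regions lay at both ends of the gene. The rule favours this, since 2 separate regions with a median width of 728 bp have little room within 1000 bp of 1 end. The 3 with the highest weaker peak, picked after their values were seen, were CLE43 with 3.02 and 2.48, AT1G77260 with 2.49 and 2.47, and WAK2, a wall-associated kinase gene, with 2.43 and 2.71. CLE43 and AT1G77260 had a region at each end, and WAK2 had both at 1 end. AIF1 (2.36 and 2.84), a helix-loop-helix gene, and BEL1 (3.03 and 2.32), a homeobox gene of ovule development, also had a region at each end. These 2 were likewise picked after their values were seen, and not by rank.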

How the data were processed

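The authors deposited 1 narrowPeak list per protein, whose peak names and labels cover all its replicates. Build TAIR10 and the tools CASAVA 1.8.2, MACS2 2.0.10 and Bowtie2 2.1.0 come from the submitters' processing notes, without role or order. The deposited peak strength is a ratio, the fold enrichment over control. The deposited lists also hold the -log10 p, a score that is 10 times this value without its decimals, and the summit offset in bp. Replicates were pooled, so no test between conditions was possible and read depth is unknown.

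From these, regions, gaps (bp between region edges), distances and counts were computed with Python 3.11.15, numpy 2.4.6, pandas 2.3.3, scipy 1.17.1, statsmodels 0.14.6 and matplotlib 3.10.9. The rule was tested on simulated data. Genes came from RefSeq's table for TAIR10.1. In place, 49.3% of PIF4 summits lay in flanks, and 20.7% after a shift of 2000 bp. Shares have 95% Wilson intervals, and a count of 0 is given the limit of 3 counts.

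Members and lists were chosen with earlier results of these data known. Named are the 25 strongest regions, the 3 weakest, up to 4 genes per list by enrichment, and those at the rule's limits. The 24 lists were matched by symbol or synonym, after which 27 genes matched by name alone were left out by hand. Elements such as the G-box, and gene strand, were planned but not analysed here, since no sequence or strand was used.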

Additional observations from a re-analysis of the deposited data

How the results depend on the processing

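The number of regions of PIF4 alone was within 1.5 times 2113 in every setting tried except 3: 1207 with the upper 50% of each list by fold enrichment, 426 with lists of equal size and 666 when regions had to lie wholly outside gene bodies, a setting added after seeing the data. Their genes then numbered 1187, 424 and 659. The share among flanking PIF4 regions was 51.5%, 24.3% and 68.3% in these settings; in the last, regions with a partner, which are wider, had to lie outside gene bodies too. It was 59.0% when a partner had to overlap by at least 50% of both peaks, 56.7% with summits within 100 bp, 44.0% with the summit in place of the midpoint and 49.2% with a limit of 2000 bp. It was 42.8% and 38.5% without a CRY2 or PIF5 peak within 500 or 1000 bp. The median fold enrichment was 2.30 with the 50% overlap, 2.26 with summits within 100 bp, 2.81 with the upper 50% and 2.94 with equal lists. Auxin response genes counted 14 with equal lists and 5 wholly outside gene bodies, and between 23 and 36 in the other settings. In stricter, shorter or trimmed lists fewer peaks are tested by construction; for the other shifts the cause was not tested. They had the highest share of the 24 lists in 8 of 13 alternative settings. Jasmonate genes were higher with the 50% overlap (9 of 28, 32.1%, against 28.3%) and with summits within 100 bp (8 of 28, 28.6%, against 30 of 120), ERF and DREB genes with the summit in place of the midpoint (22.7% against 20.8%), and bHLH genes with a limit of 2000 bp (27.8% against 27.5%) and wholly outside gene bodies (13.9% against 4.17%). MYB genes counted 26 of 125 (20.8%) and NAC genes 13 of 100 with a limit of 2000 bp, where all genes stood at 9.34%. Brassinosteroid genes counted 2 with the 50% overlap, 1 with a limit of 2000 bp and 0 in the other settings. Every gene within 1000 bp of a midpoint gave 2847 genes (10.4%).

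Of the 25 strongest regions' genes, 25 remained with equal lists, 22 with the summit in place of the midpoint, 19 with a limit of 500 bp and 8 wholly outside gene bodies. Planned settings for sequence elements and for the side of a gene were not run. Leaving out replicates was not possible in pooled lists. No paired analysis was possible because each protein has 1 pooled list. The unknown depth limits how far an uncalled peak can be read.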
